A study of Mus musculus with 6 samples.

Results

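Astrocytes, the glial cells that take up glutamate and water around synapses and vessels, are commonly recognised by 8 genes: the glutamate transporters Slc1a2 and Slc1a3, the intermediate filament gene Gfap, the water channel gene Aqp4, the folate enzyme gene Aldh1l1, the transcription factor gene Sox9, the gap junction gene Gja1 and the calcium-binding protein gene S100b. Their chromatin was examined in macrophages sorted from mouse brain tumours, cells of another lineage. The loci were taken as the peaks of open chromatin that the deposited table annotates to 1 of the 8 symbols, which gave 58 of 92864 peaks, 11 in the promoter class (up to 3 kb from an annotated start site) and 47 outside it, called distal here. Peaks were found for 7 of the 8 genes, and Sox9 was not analysed here. Slc1a3 held 25 peaks, Slc1a2 and Aldh1l1 10 each, Gfap and S100b 4 each, Gja1 3 and Aqp4 2. The annotation goes by the nearest start site: 31 of the 58 peaks lay within the RefSeq span of the gene they are named for, and 6 lay within another protein-coding gene. Peaks within the span of a member that carry another symbol were not examined.

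Chromatin was profiled by ATAC-seq, in which the Tn5 transposase inserts sequencing adapters into accessible DNA, so that a count of reads in a peak measures accessibility and not expression. Bone marrow derived macrophages (BMDM), which enter the tumour from the blood, were sorted on CD45, a high level of CD49d, F4/80 and CD11b. Microglia (MG), which live in the brain from early development, were sorted on F4/80 and CD11b with CD45 low and CD49d low or absent. Cells of both gates were LY6G- with low or absent LY6C. They came from tumours of the isogenic glioma line SB28 placed in the brain of mice whose genotype is labelled WT, and neither age nor sex is given. Each group had 3 libraries. Whether each came from its own animal is not labelled. The p-values below therefore reflect the spread between libraries alone, and that spread may be technical.

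Glutamate uptake by the products of Slc1a2 and Slc1a3 ends excitatory signalling at synapses. Gfap builds the astrocyte cytoskeleton and is raised in reactive astrocytes, Aqp4 sits in the end-feet around vessels, and Gja1 (connexin 43) couples astrocytes into a network. Several of the genes are not restricted to astrocytes: Slc1a3, Gja1 and Sox9 are also used by neural progenitors and by gliomas, and S100b by cells of the oligodendrocyte lineage.

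The start sites of Slc1a3, S100b and Gja1 are shown because a peak covered each of them and because their libraries behaved differently, as described below. Each sequence runs 5′ to 3′ in the direction of the gene, from 250 bases before to 50 bases after the RefSeq start site (GRCm38.p6). The Slc1a3 window is chr15:8710758-8711057 on the minus strand, the S100b window chr10:76253586-76253885 and the Gja1 window chr10:56377050-56377349, both on the plus strand. Capitals mark matches to 4 motifs searched on both strands: TTGGC, the core of nuclear factor I sites known from astrocyte genes, GAGGAA, a site of the myeloid factor PU.1, TGANTCA for AP-1 and TTCNNNGAA for STAT factors.
Slc1a3: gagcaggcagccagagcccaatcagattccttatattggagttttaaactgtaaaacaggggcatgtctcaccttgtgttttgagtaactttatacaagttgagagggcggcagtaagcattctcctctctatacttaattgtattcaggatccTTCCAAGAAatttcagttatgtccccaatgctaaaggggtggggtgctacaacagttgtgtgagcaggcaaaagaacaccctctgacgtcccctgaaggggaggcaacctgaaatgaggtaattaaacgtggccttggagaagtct
S100b: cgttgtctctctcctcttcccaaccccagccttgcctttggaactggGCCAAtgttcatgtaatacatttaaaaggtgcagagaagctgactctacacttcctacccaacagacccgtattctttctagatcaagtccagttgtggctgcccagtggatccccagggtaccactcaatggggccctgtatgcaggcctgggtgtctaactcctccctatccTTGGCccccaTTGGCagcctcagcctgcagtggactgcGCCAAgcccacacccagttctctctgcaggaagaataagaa
Gja1: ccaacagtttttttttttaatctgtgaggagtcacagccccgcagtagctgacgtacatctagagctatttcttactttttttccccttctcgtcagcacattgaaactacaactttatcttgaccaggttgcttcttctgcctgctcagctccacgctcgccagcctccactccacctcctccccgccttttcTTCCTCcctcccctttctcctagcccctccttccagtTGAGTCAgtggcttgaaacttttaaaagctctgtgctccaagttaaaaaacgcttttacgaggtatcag
The Slc1a3 window held 1 match, to the STAT motif, at -96 from the start site. In the S100b window 4 matches to TTGGC or its complement GCCAA lay at -203, -29, -19 and 10, and in the Gja1 window TTCCTC, the complement of the PU.1 letters, lay at -56 and TGAGTCA at -19. A match was common in any window of this length: among 32851 RefSeq windows TTGGC was found in 46.7%, GAGGAA in 28.3%, TGANTCA in 7.81% and TTCNNNGAA in 8.3%. GC content was 45.3% in the Slc1a3 window, 53.7% in the S100b window and 47.7% in the Gja1 window, against a median of 52.7%. The deposited peaks covered 298, 300 and 215 of the 300 bases in the order Slc1a3, S100b, Gja1. Aldh1l1 held none of the 4 motifs in its window, and no deposited peak overlapped the RefSeq windows of Slc1a2 and Gfap.

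Reads in peaks numbered 7167211, 19727511 and 4910448 in BMDM 1, 2 and 3, and 19244734, 23601865 and 12531808 in MG 1, 2 and 3. All levels below are normalized counts, that is reads divided by the authors' size factor of the library, and 3 reads came to between 1.64 (MG 2) and 5.95 (BMDM 1) of them. Over all peaks the MG libraries were less alike than the BMDM libraries. The log2 counts of MG 1 correlated at 0.766 with MG 2, at 0.896 with MG 3 and at 0.851 to 0.867 with the BMDM libraries, those of MG 2 at 0.935 with MG 3 but only between 0.713 and 0.798 with any BMDM library, while the BMDM libraries correlated at 0.906 to 0.937 with each other. Differences are log2, BMDM minus MG, relative to the median feature, which itself differed by -0.14 over peaks, -0.31 over promoter sums and -0.11 over distal sums. The p-values are limma's and test the difference before that shift. In the markers of the sorted cells, the promoter of Itga4, which encodes CD49d and was used in the gate, rose by 1.51 ± 0.35 in BMDM (SE; adjusted p = 0.00896, n = 3 each), and that of Tmem119, a microglial surface protein, fell by 1.22 ± 0.34 (adjusted p = 0.000206). Both p-values hardly use a gene's own spread, as described for Slc1a3 below.

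Of the 58 peaks 53 had a mean of at least 10 normalized counts and were tested. In BMDM 8 fell, all annotated to Slc1a3, and 3 rose, all annotated to Slc1a2. Over all peaks tested 1.54% were lower and 5.33% were higher in BMDM (limma, adjusted p under 0.05). The groups did not overlap in 16 member peaks that were lower in BMDM, where all peaks gave 12.3%, and in 9 that were higher, where all peaks gave 16.7%. Of the 6 summed promoters 2 fell, Slc1a3 and S100b, and 0 rose, against 9.16% and 2.75% of all promoter sums, and at an unadjusted p under 0.05 limma gave 3 lower and 0 higher, against 18.1% and 4.95% of all promoter sums. Of the 7 distal sums 1 fell, Slc1a3, and 0 rose, against 0.3% and 0.987% of all, and 2 were lower and 1 higher at an unadjusted p under 0.05, against 10.3% and 12.8%. With voom 0 sums of either kind rose. Peak calls rest on few libraries: without BMDM 1, BMDM 2 or MG 3, limma called 0 of 87944 peaks (lowest adjusted p = 0.132, 0.186 and 0.0767), although between 4632 and 5658 peaks were lower and between 9148 and 10502 higher at an unadjusted p under 0.05.

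**Figure D1:**
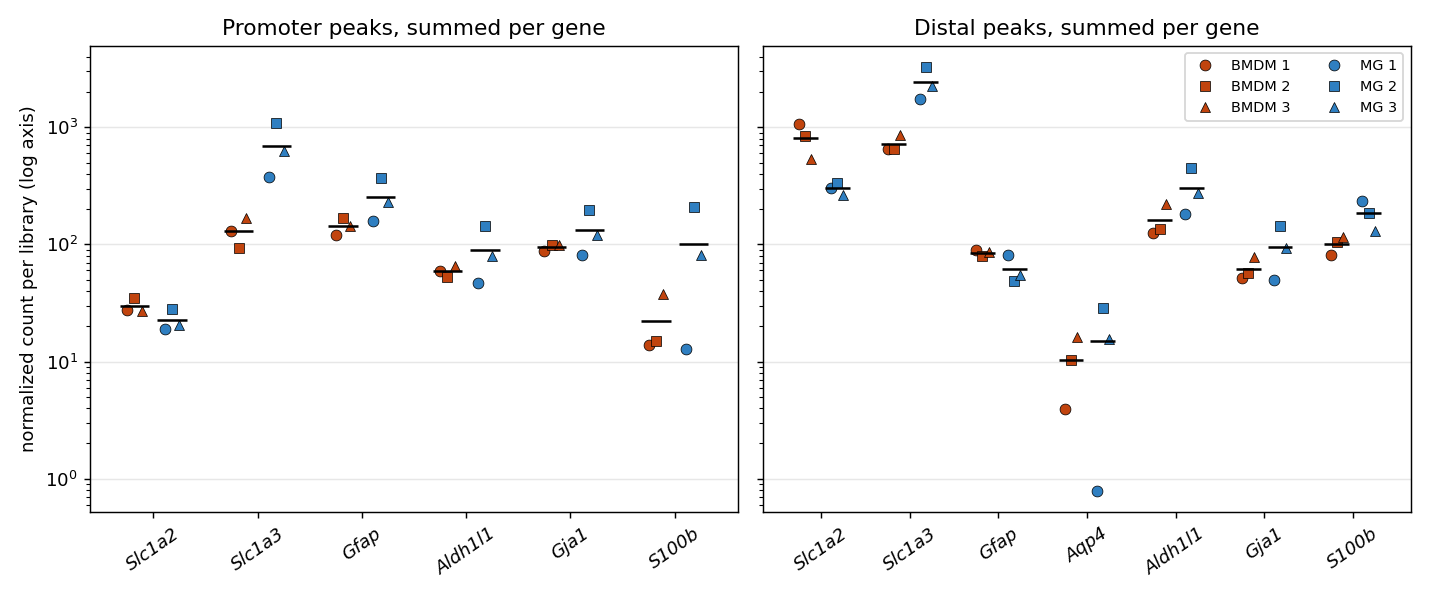
Normalized counts on a log axis, summed per gene over promoter peaks (left) and distal peaks (right), with 1 symbol per library, BMDM in orange left of MG in blue, and a bar at each group's mean. Slc1a3 is lower in all BMDM libraries in both panels, distal Slc1a2 is higher in all of them, and S100b promoter counts run from 12.7 in MG 1 to 207 in MG 2.

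Slc1a3, which encodes the glutamate and aspartate transporter GLAST, was less open in BMDM at its promoters and around the gene. Its 3 promoter peaks summed to 131, 93.9 and 167 normalized counts in BMDM 1, 2 and 3, and to 377, 1079 and 623 in MG 1, 2 and 3. No BMDM library reached the lowest MG library. The BMDM mean was 130 ± 36.4 and the MG mean 693 ± 356 (SD, n = 3 each), and the sum fell by 1.99 ± 0.32 (limma adjusted p = 5.65e-10). In the promoter fit the variance that limma shares over genes took nearly all the weight. Its p-values, here and for the genes above and below, therefore hardly use a gene's own spread. The same held for single peaks tested without MG 1, and to a lesser degree for distal sums without MG 1. The Slc1a3 sum passed under all other settings and without any single library (differences -2.47 to -1.56), with a much larger adjusted p with library totals (0.0265), loess (0.0336) and no trend (0.00714). Its 22 distal peaks summed to 647, 648 and 859 in BMDM and to 1749, 3263 and 2259 in MG. Here too the groups were apart, with a BMDM mean of 718 ± 122 and an MG mean of 2424 ± 770 (n = 3 each), and the sum fell by 1.61 ± 0.29 (limma adjusted p = 0.0479). The distal call is close to its threshold: it was lost without BMDM 1 (adjusted p = 0.197), BMDM 2 (0.259), BMDM 3 (0.0537) or MG 3 (0.239), while the difference stayed between -1.74 and -1.53 in those fits. In bulk libraries a larger share of cells with an open site and a wider opening in the same cells cannot be told apart.

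At 14 of the 25 Slc1a3 peaks every MG library exceeded every BMDM library, where 12.3% of all peaks had this form. At 8 others only MG 2 and MG 3 did so, where all peaks gave 12.7%. The peak over the RefSeq start site, on chromosome 15 at 8709614 to 8711055 (mm10), held 47.6, 42.1 and 59.8 counts in BMDM and 155, 470 and 284 in MG. It fell by 2.32 ± 0.41 (limma adjusted p = 0.026, n = 3 each), the largest difference among the 8 called peaks of the gene. Downstream of the gene, an intergenic peak at 8626996 to 8627800, 15447 bp from the nearest start site, held 131, 120 and 94.2 counts in BMDM and 426, 379 and 338 in MG. Its MG libraries differed little from each other, with means of 115 ± 18.8 in BMDM and 381 ± 43.9 in MG, and it fell by 1.59 ± 0.29 (limma adjusted p = 0.026). A neighbour at 8629132 to 8629810 held 47.6, 48.6 and 67 counts in BMDM and 173, 275 and 232 in MG, and fell by 1.90 ± 0.32 (limma adjusted p = 0.026). The peak in the 3′ UTR, at 8634797 to 8636592, was highest in MG 1: it held 101, 60.9 and 87 counts in BMDM and 356, 168 and 241 in MG, and fell by 1.44 (limma adjusted p = 0.0361). The other called peaks fell by 1.25 to 1.96.

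Other Slc1a3 peaks did not separate MG 1 from BMDM. An intronic peak at 8659293 to 8660605 held 25.8, 20.7 and 52.5 counts in BMDM and 33.3, 565 and 239 in MG, and a second promoter-class peak, at 8643670 to 8645371, held 31.7, 22 and 39.9 counts in BMDM and 34.9, 493 and 199 in MG. MG 2 held a far higher count than MG 1 at both sites, MG 1 lay within the range of BMDM, and neither difference passed (limma adjusted p = 0.11 and 0.0994). Both passed by the authors' deposited adjusted p (0.000692 and 0.000687). Among all peaks of its library the promoter-class site ranked at the 43.1, 31.3 and 46.2 percentile in BMDM 1, 2 and 3, and at the 48.9, 92.4 and 83.8 percentile in MG 1, 2 and 3. Intergenic peaks upstream of the start, at 8715740 and 8733699, had the same form, with 29.4 and 21.4 counts in MG 1 against 328 and 174 in MG 2. These peaks were chosen after their values were seen. At the remaining 3 Slc1a3 peaks MG 3 did not exceed all BMDM libraries. The only one of them that was tested, at 8676280, held 3.97, 13 and 27.2 counts in BMDM and 7.93, 69.4 and 22.4 in MG.

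**Figure D2:**
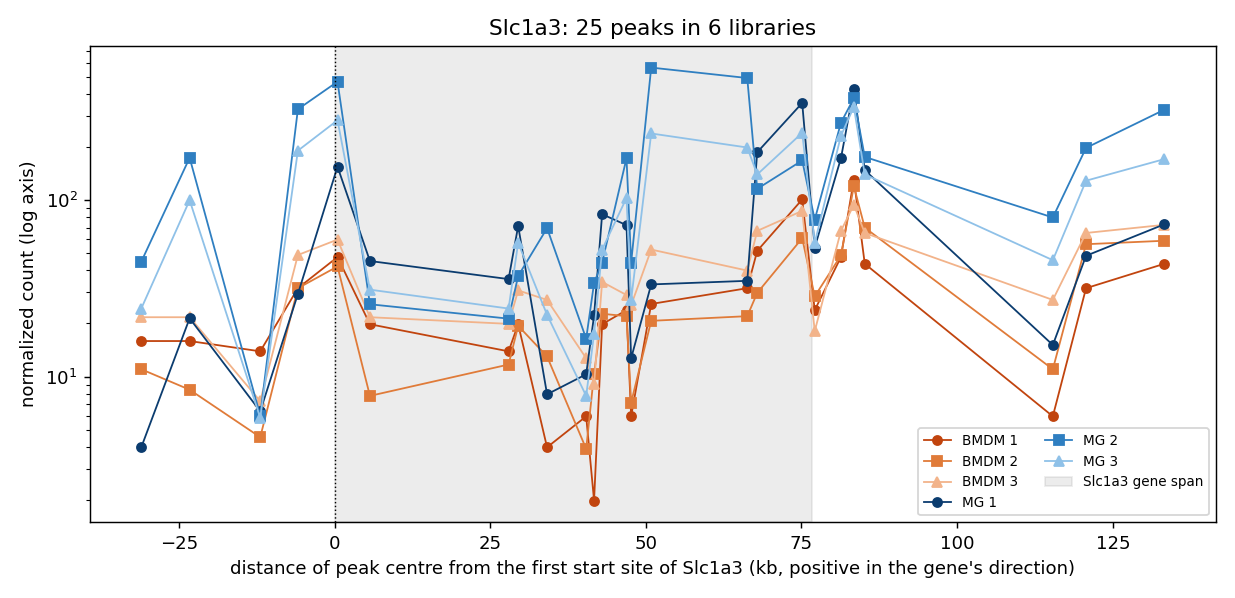
Normalized count on a log axis of each of the 25 Slc1a3 peaks against the distance of its centre from the first start site in kb, 1 line per library (orange BMDM, blue MG), with the gene span in grey. All MG lines lie above BMDM in the region just past the gene's end, where the peak at 8626996 holds 426, 379 and 338 counts in MG, while MG 1 (darkest blue) lies with BMDM at several peaks upstream and within the gene.

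Slc1a2, which encodes GLT-1, the main glutamate transporter of the adult forebrain, went the other way. Its only promoter-class peak was low in every library, with 27.8, 35 and 27.2 counts in BMDM and 19, 27.9 and 20.4 in MG. Tested among promoter sums its difference did not pass (0.73 ± 0.59, limma adjusted p = 0.716, n = 3 each). The 9 distal peaks summed to 1061, 835 and 531 counts in BMDM and to 306, 334 and 262 in MG. The groups were apart, with means of 809 ± 266 in BMDM and 301 ± 36.1 in MG, yet the difference of 1.49 ± 0.29 just missed the threshold (limma adjusted p = 0.0546). It passed with library totals (0.0182), with loess (0.0176), without MG 1 (0.00377), without MG 2 (0.0278) and over distal peaks within 100 kb (0.05). In 8 of the 10 peaks each BMDM library exceeded each MG library, where 16.7% of all peaks did. These 8 include 2 peaks within another gene, Cd44, described below. In none of the 10 was MG 2 the highest library, against 29.2% of all peaks.

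The called Slc1a2 peak with the smallest p lay outside the gene. On chromosome 2 at 102812800 to 102813254, 51627 bp from the nearest Slc1a2 start site and annotated as a 3′ UTR, it held 125, 118 and 90.6 counts in BMDM and 25.4, 35 and 24.3 in MG. Every BMDM library was above every MG library, and the peak rose by 2.08 ± 0.33 (limma adjusted p = 0.026, n = 3 each). This peak and the next, at 102815180 to 102815814, lie within the RefSeq span of Cd44 (102811141 to 102901669), which encodes a hyaluronan receptor abundant on macrophages. The 26 peaks annotated to Cd44 itself summed to 7163, 6333 and 3275 counts in BMDM and to 3195, 3226 and 2395 in MG, and the 2 peaks that carry the Slc1a2 symbol within Cd44 to 403, 317 and 176 in BMDM and 98.4, 105 and 81.6 in MG. In both sums BMDM was higher than MG with no overlap.

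In all, 11 peaks overlapped the span of Slc1a2, of which 7 carry its symbol, and the others were not examined. Of the 6 distal peaks within the gene that carry its symbol, all intronic, 2 were called higher in BMDM. One at 102713236 to 102713698 held 105, 58.3 and 32.6 counts in BMDM and 13.5, 18 and 11.7 in MG, and rose by 2.11 ± 0.47 (limma adjusted p = 0.0397, n = 3 each). Another at 102751448 to 102752357 held 81.3, 66.7 and 54.3 counts in BMDM and 22.2, 32.3 and 22.4 in MG, and rose by 1.50 ± 0.35 (limma adjusted p = 0.0467). The most open peak that carries the symbol, at 102700898 to 102702062, held 319, 251 and 111 counts in BMDM and 57.9, 95.7 and 55.4 in MG. Its difference of 1.74 ± 0.43 did not pass (limma adjusted p = 0.0527). It passed by the authors' deposited adjusted p (0.00466). In each of the 3 the groups were apart and BMDM 3 was the lowest BMDM library. The intronic peak at 102682154 to 102682540 did not differ beyond the spread, with 15.9, 28.5 and 50.7 counts in BMDM and 46.8, 26.2 and 27.2 in MG (difference -0.04 ± 0.48, limma adjusted p = 0.86). With the peaks inside Cd44 left out, a choice made after seeing the data, the distal peaks of Slc1a2 summed to 659, 519 and 355 counts in BMDM and to 208, 229 and 181 in MG. That difference was 1.38 (limma adjusted p = 0.0577), and 2 called peaks remained.

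**Figure D3:**
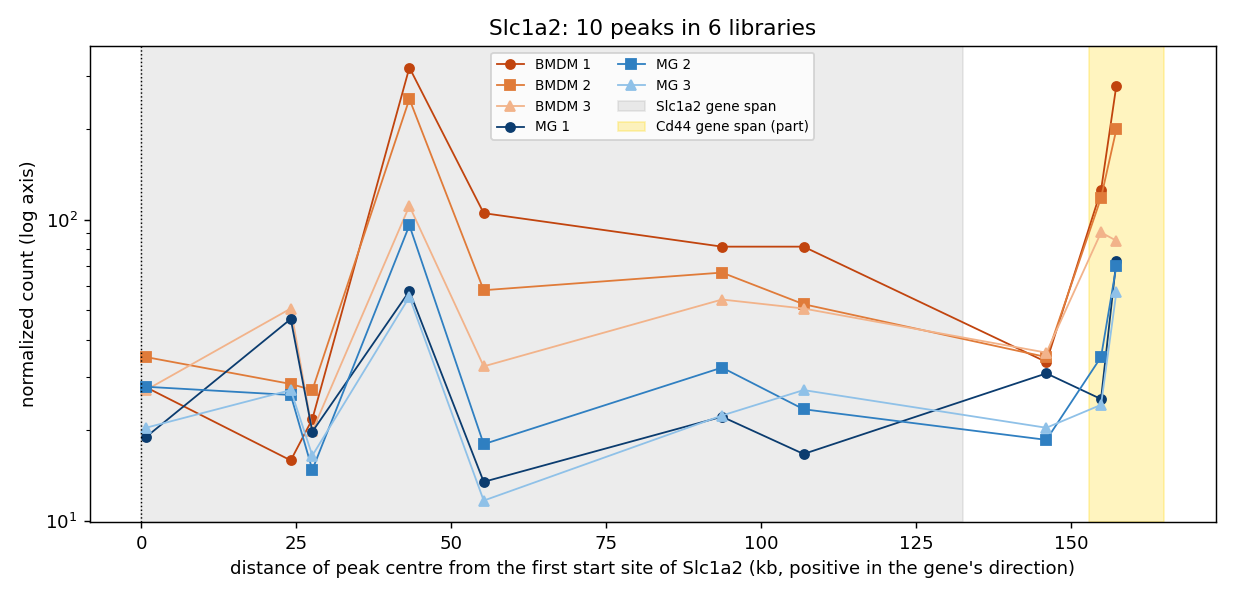
Normalized count on a log axis of each of the 10 Slc1a2 peaks against the distance of its centre from the first start site in kb, 1 line per library (orange BMDM, blue MG), with the span of Slc1a2 in grey and part of Cd44 in yellow. The groups overlap at the start site and at the first intronic peak, and all BMDM lines lie above the MG lines at the other 8 peaks, narrowly so at the second intronic peak (19.9 counts in BMDM 3 and 19.8 in MG 1).

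Gfap, the astrocyte intermediate filament, had no called difference with all libraries and all promoter-class peaks. Its promoter-class peaks summed to 121, 168 and 143 counts in BMDM and to 159, 371 and 228 in MG, with a difference of -0.42 ± 0.33 (limma adjusted p = 0.148, n = 3 each). The sum passed without MG 1 (-0.82, adjusted p = 0.0198). It also passed with promoter peaks within 1 kb alone (-0.75, adjusted p = 0.0279), which leaves only the most open peak, given next, tested among promoter sums. Its most open peak, on chromosome 11 at 102900559 to 102901517, lay upstream of the RefSeq gene span (102887336 to 102897200). It overlapped Gm34560 and Gm39395, neither of them protein-coding, and held 67.4, 95.8 and 88.8 counts in BMDM and 133, 248 and 167 in MG. The groups were apart there, but the difference of -0.94 ± 0.33 did not pass (limma adjusted p = 0.078), and passed without MG 1 (-1.20, adjusted p = 0.00896). In the authors' deposited table its adjusted p is 0.0413. An exonic peak of Gfap at 102892864 to 102893625 went the other way, with 89.3, 79.6 and 87 counts in BMDM and 80.9, 49.2 and 54.4 in MG (difference 0.63 ± 0.32, limma adjusted p = 0.377).

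Aqp4, the astrocyte water channel, had no peak within its own span. Its 2 peaks lay on chromosome 18 at 15551823 to 15552169 and 15552459 to 15552760, -140841 and -141477 bp from the start site and in an intron of Chst9, a sulfotransferase gene. Together they held 3.97, 10.4 and 16.3 counts in BMDM and 0.793, 28.4 and 15.5 in MG. Both stayed under the filter as single peaks, and at this depth a difference was not detectable, since 3 reads come to 5.95 counts in BMDM 1 and to 2.38 in MG 1. Their sum differed by 0.17 ± 1.07 (limma adjusted p = 0.98, n = 3 each), and the sign turned with loess (-0.04), with a pseudocount of 5 (-0.04), without BMDM 3 (-0.24) and without MG 1 (-1.02).

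Aldh1l1, a cytosolic folate enzyme used as a general astrocyte marker, had 10 peaks, of which 9 were tested. Limma called 0, with 1 lower at an unadjusted p under 0.05, where 9.58% of all peaks were. Its promoter peak on chromosome 6 at 90550230 to 90551127 held 41.7, 33.7 and 48.9 counts in BMDM and 40.5, 137 and 64.1 in MG. MG 1 lay among the BMDM libraries, and the difference of -0.64 ± 0.45 did not pass (limma adjusted p = 0.319, n = 3 each). Without MG 1 it was -1.09 (adjusted p = 0.0261). Summed with a small second promoter-class peak it held 59.5, 53.1 and 65.2 counts in BMDM and 46.8, 145 and 79.7 in MG (difference -0.15 ± 0.42, limma adjusted p = 0.548). Further upstream, the peak at 90531352 to 90532268 held 19.8, 15.5 and 16.3 counts in BMDM and 3.17, 157 and 52.5 in MG, so that MG contained both the lowest and the highest library. Its difference was -0.72 ± 1.05 (limma adjusted p = 0.659), -2.26 without MG 1 (adjusted p = 2.57e-05) and 0.37 without MG 2. The 8 distal peaks summed to 125, 136 and 221 counts in BMDM and to 182, 448 and 273 in MG. The difference of -0.74 ± 0.38 missed the threshold (limma adjusted p = 0.219) and was -1.03 without MG 1 (0.0157). In 6 of the 10 peaks MG 2 and MG 3 exceeded all BMDM libraries, where 25% of all peaks had this form. In all 6 of these MG 1 did not, where all peaks gave 12.7%.

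Gja1, the connexin of astrocyte gap junctions, had its promoter peak on chromosome 10 at 56377135 to 56379282, with 87.3, 99.7 and 99.6 counts in BMDM and 81.7, 196 and 120 in MG. MG 1 was the lowest of the 6 libraries. As a peak it differed by -0.24 ± 0.36 (limma adjusted p = 0.561, n = 3 each) and by 0.04 without MG 2, and among promoter sums by -0.06 ± 0.37 (limma adjusted p = 0.579). The distal peak at 56339000 to 56339562 held 33.7, 36.9 and 45.3 counts in BMDM and 22.2, 59.6 and 44.7 in MG, with a difference of 0.11 ± 0.42 (limma adjusted p = 0.978) that was -0.00094 with loess. Distal peaks together held 51.6, 57 and 77.9 counts in BMDM and 50, 143 and 93.3 in MG (difference -0.40 ± 0.42, limma adjusted p = 0.494).

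S100b, a calcium-binding protein of astrocytes and oligodendrocyte-lineage cells, had its promoter on the same chromosome at 76253375 to 76254170. It held 13.9, 14.9 and 38 counts in BMDM and 12.7, 207 and 81.6 in MG. MG 2 and MG 3 exceeded BMDM, and MG 1 was below every BMDM library. Tested among promoter sums it fell by 1.24 ± 0.53 (BMDM mean 22.3 ± 13.7, MG mean 100 ± 98.3, limma adjusted p = 0.031, n = 3 each) although the groups overlap, and tested among single peaks the same site had a difference of -1.42 ± 0.85 and did not pass (adjusted p = 0.291). The promoter call was lost with library totals (0.459), loess (0.289) and voom (0.21) and without any of BMDM 1 (0.166), BMDM 2 (0.154), BMDM 3 (0.231), MG 2 (0.605, difference -0.32) and MG 3 (0.373). Without MG 1 the single peak differed by -2.56 (limma adjusted p = 4.96e-07), in a fit that hardly uses a peak's own spread. With all libraries the same peak passed by the authors' deposited adjusted p (0.0331). The intronic peak at 76257439 to 76258358 had the opposite order of MG libraries, with 73.4, 88.1 and 58 counts in BMDM and 233, 94 and 98.2 in MG (difference -0.70 ± 0.40, limma adjusted p = 0.232). All 3 distal peaks of S100b summed to 81.3, 104 and 116 counts in BMDM and to 236, 186 and 129 in MG, groups that did not overlap but did not pass either (difference -0.73 ± 0.31, limma adjusted p = 0.155).

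**Figure D4:**
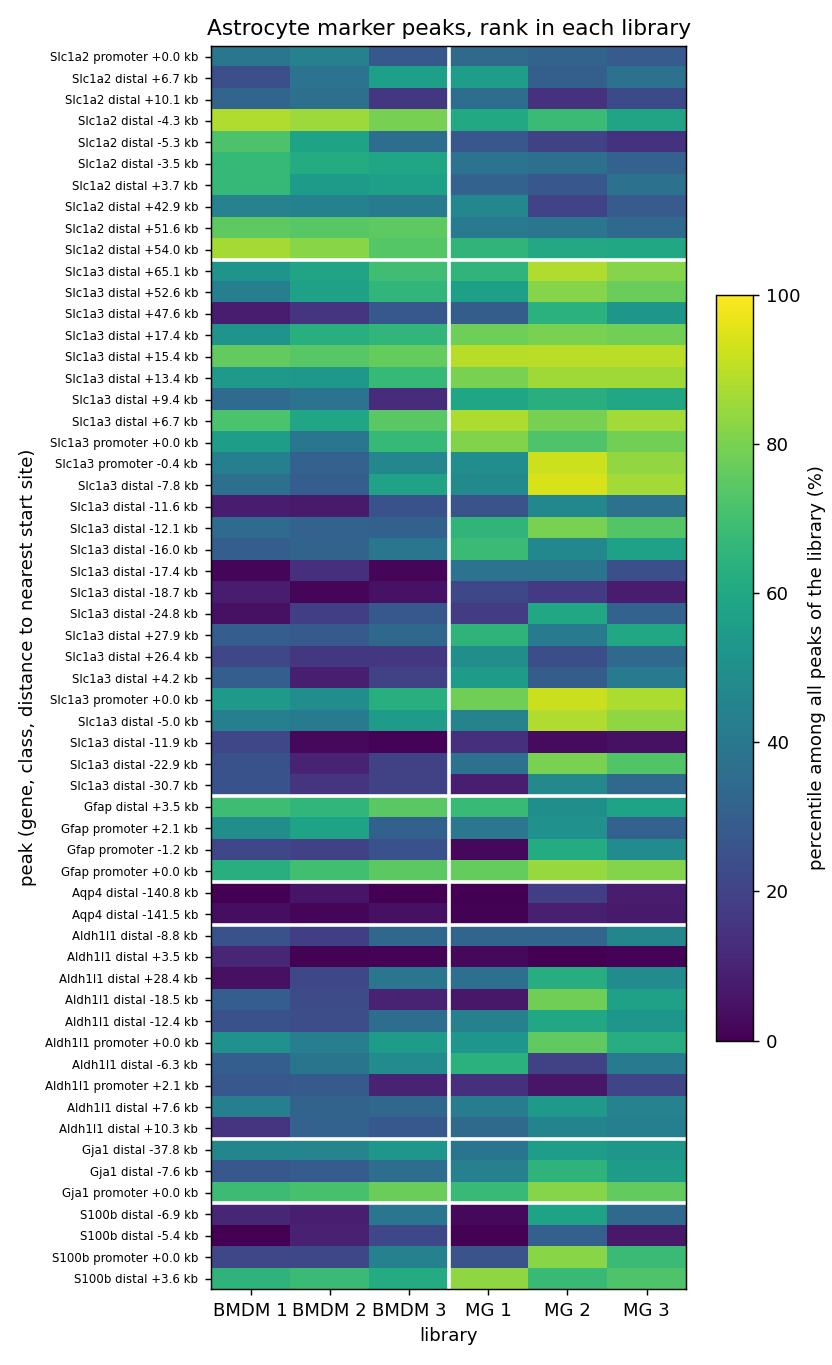
Percentile of each of the 58 peaks among all peaks of the same library (colour, 0 to 100%), with peaks grouped by gene in rows and the BMDM libraries in columns left of the MG libraries; labels give the distance to the nearest start site in kb. The Slc1a3 promoter peak at the first start ranks at the 54.1, 49.2 and 62.9 percentile in BMDM and at the 78.4, 91.8 and 87.7 percentile in MG. MG 2 holds the highest count at 3 of the 4 S100b peaks and 6 of the 10 Aldh1l1 peaks, against 29.2% of all peaks.

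Across the loci the MG libraries also differed among themselves. MG 2 was the highest of the 6 libraries at 33 of the 58 peaks (56.9%, against 29.2% of all peaks). MG 2 and MG 3 exceeded every BMDM library at 35 (60.3%, against 25%), and at 19 of these MG 1 did not (32.8%, against 12.7%). MG 1 failed to exceed the highest BMDM library at 41 (70.7%, against 67.3%), a share close to that of all peaks. Summed over all member promoter peaks the counts were 440, 464 and 540 in BMDM and 696, 2026 and 1153 in MG. All distal peaks summed to 2059, 1870 and 1908 in BMDM and to 2605, 4451 and 3087 in MG. In both sums the groups were apart and MG 2 was highest, but much of each is Slc1a3. Without Slc1a3 the promoter peaks summed to 309, 370 and 373 in BMDM and to 319, 947 and 530 in MG, so that MG 1 lay within BMDM. Without both transporter genes the distal peaks summed to 351, 387 and 518 in BMDM and to 550, 854 and 566 in MG. Without MG 1, 26 member peaks were lower in BMDM and 6 higher, where 12.8% and 12.1% of all peaks were called. Without MG 2, 9 were lower and 6 higher, against 2.87% and 9.31%. In both fits the variance that limma shares over peaks took most of the weight, above all without MG 1. Their calls therefore use little of a peak's own spread. By the authors' deposited table, 15 member peaks were lower and 6 higher at an adjusted p under 0.05, where all peaks gave 5.38% and 9.06%.

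The members did not share 1 profile over the libraries. With all peaks of a gene summed and its log2 values centred, the mean of the members was -0.45, -0.23 and -0.02 in BMDM and -0.44, 0.90 and 0.24 in MG. Over the 6 libraries, as a description, Pearson's r with the mean of the other members was 1.00 for Gja1, 0.94 for Aldh1l1, 0.93 for Gfap, 0.62 for S100b, 0.58 for Aqp4 and 0.56 for Slc1a3, and -0.64 for Slc1a2. Among 9377 genes outside the list the profiles most like the members' mean were those of Kank1 (r = 0.993), Tbx4 (0.991), Plekha5 (0.989), Gfpt2 (0.987), Plekhb1 (0.986), Gphb5 (0.985), Csgalnact1 (0.985) and Ptpn14 (0.984). Kank1, a regulator of the actin cytoskeleton, held 315, 351 and 514 counts in BMDM and 271, 1615 and 775 in MG.

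Other genes used in astrocytes gave similar counts. Of 21 further astrocyte genes with a tested promoter 7 fell in BMDM and 0 rose, with a median of -0.27, where 2 of 6 members fell and 0 rose with a median of -0.28 and 9.16% of all promoters fell. Nfib, a nuclear factor I gene, held 69.4, 31.1 and 72.5 counts in BMDM and 71.4, 480 and 317 in MG and fell by 1.71 (limma adjusted p = 4.54e-06, n = 3 each). Clu, which encodes clusterin, fell by 1.33 with MG 1 within the BMDM range, and Serpina3n, a serine protease inhibitor of reactive astrocytes, fell by 1.66. Serpina3n held 11.9, 19.4 and 36.2 counts in BMDM and 12.7, 316 and 137 in MG, again with MG 1 within the BMDM range. Id4, an inhibitor of differentiation, was highest in MG 1 instead, with 23.8, 25.9 and 54.3 counts in BMDM and 215, 70.5 and 116 in MG, and fell by 1.56 (limma adjusted p = 0.000438). Of 23 such genes with tested distal peaks 1 fell, Id4, and 0 rose, against 0.3% and 0.987% of all distal sums. At an unadjusted p under 0.05 limma gave 4 lower and 3 higher, against 10.3% and 12.8% of all.

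Markers of other neural cells fell in part, where 9.16% of all promoters did. Of 16 promoters of the oligodendrocyte lineage 8 fell in BMDM and 0 rose (median -1.0), and they summed to between 1964 and 2041 counts in BMDM and between 2928 and 6380 in MG. Sox10, the lineage's transcription factor, held 37.7, 55.7 and 83.3 counts in BMDM and 65.1, 1102 and 518 in MG (difference -2.24, limma adjusted p = 3.56e-10, n = 3 each). Of 11 promoters of neural progenitors and glioma cells 6 fell and 0 rose (median -0.81), with sums of 3217 to 4207 in BMDM and 4990 to 5902 in MG, the highest being MG 1. Sox2, a stem cell factor on this list, held 63.5, 51.8 and 94.2 counts in BMDM and 146, 672 and 387 in MG. Of 10 neuronal promoters 2 fell and 0 rose (median -0.34): Map2, highest in MG 2 (402 counts), and Elavl4, highest in MG 1 (417 counts), with sums of 1192 to 1234 in BMDM and 1750 to 2586 in MG. Limma gave 12, 6 and 5 lower promoters in these 3 lists at an unadjusted p under 0.05 and 0 higher, against 18.1% and 4.95% of all promoters. Of 13 distal sums of the oligodendrocyte list 6 were lower and 0 higher at that p, against 10.3% and 12.8% of all. Those of the progenitor and neuronal lists went both ways, with 3 and 1 lower and 1 and 1 higher of 11 tested in each. No gene of these lists was at 0 in any library. MG 2 was the highest library in the centred medians of the oligodendrocyte, progenitor and neuronal promoters, as for the members. The part of other cells in the members' counts was not tested.

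Lists of the sorted cells had other profiles. Of 14 microglial promoters 5 fell in BMDM and 0 rose (median -0.47), where 9.16% and 2.75% of all promoters did. At an unadjusted p under 0.05 limma gave 10 lower and 0 higher, against 18.1% and 4.95% of all promoters. Their centred median was highest in MG 1, at 0.88, against -0.11 in MG 2 and 0.29 in MG 3. The promoter of Sall1, which keeps microglia in their resident state, held 335, 157 and 185 counts in BMDM and 1863, 502 and 956 in MG. That of Tmem119 was also highest in MG 1 (323 counts). The called promoters of Sparc and Olfml3 were highest in MG 2 instead, with 283, 509 and 335 and with 711, 984 and 732 counts in MG. Of 13 pan-myeloid and gate promoters 2 rose, Itga4 and Ly6c2, and 0 fell (median 0.44), with centred medians of 0.44, 0.26 and -0.35 in BMDM and 0.58, -0.55 and -0.16 in MG. In MG 2 the members were at their highest where the pan-myeloid list was at its lowest. Of 10 endothelial and mural promoters 1 rose, Pecam1, and 0 fell (median 0.47). At an unadjusted p under 0.05 limma gave 2 higher and 0 lower in each of the pan-myeloid and endothelial lists. Over distal sums 1 gene fell in each of the oligodendrocyte (Mog), progenitor (Sox4) and neuronal (Snap25) lists, and Itga4 of the gate list rose. Of all distal sums 0.3% fell and 0.987% rose. All promoter counts depend on the scaling: over all promoters 419 were higher and 1397 lower in BMDM, but 360 and 575 with library totals and 752 and 461 with loess. Over distal sums the split was 138 higher and 42 lower, 702 and 51 with library totals and 802 and 251 with loess.

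**Figure D5:**
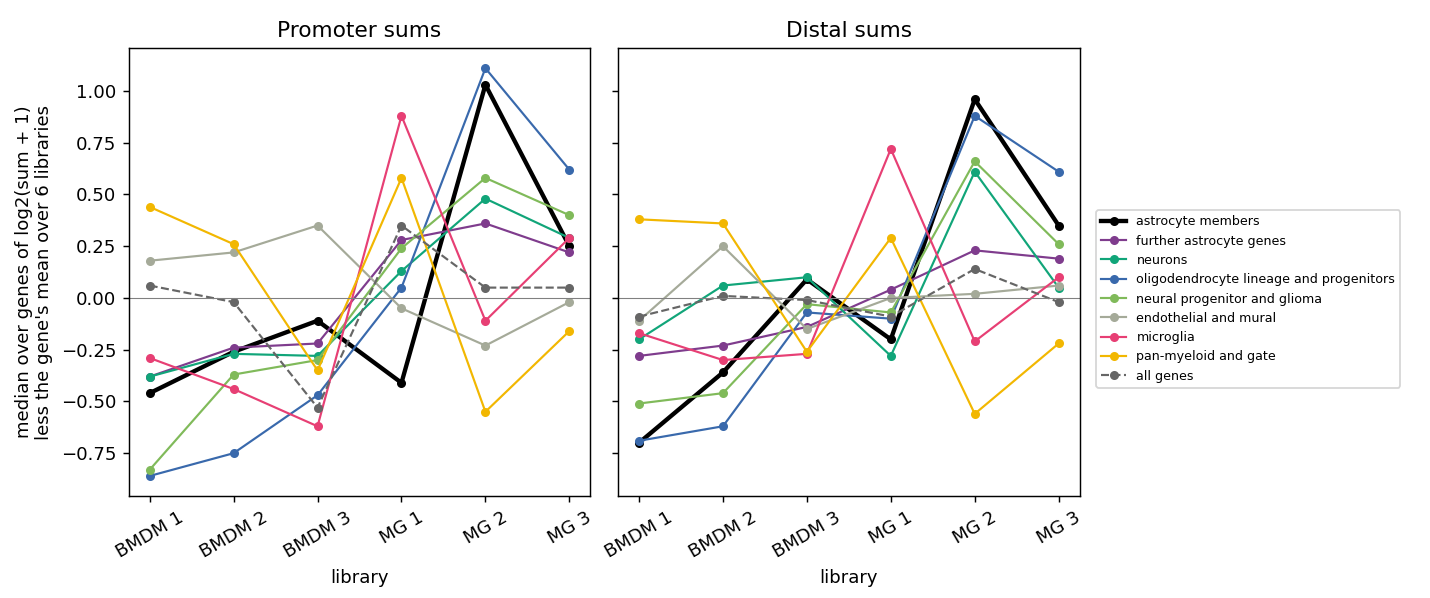
Median over the genes of each list of log2(summed count + 1) less the gene's mean over the 6 libraries, for promoter sums (left) and distal sums (right), with BMDM libraries left of MG libraries and 1 line per list. The members (thick black) peak in MG 2, at 1.03 for promoters, together with the oligodendrocyte list, while the microglial list peaks in MG 1 at 0.88.

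Peaks were also called in each library by itself. In the deposited lists of BMDM 1, 2 and 3, 7, 21 and 3 of the 58 member peaks were overlapped by at least 1 base, or 12.1%, 36.2% and 5.17%, where 34.7%, 54.5% and 17.9% of all table peaks were. In the lists of MG 1, 2 and 3 it was 23, 42 and 36, or 39.7%, 72.4% and 62.1%, where 51.7%, 73.7% and 53.8% of all table peaks were. The mean was 10.3 ± 9.45 member peaks for BMDM libraries and 33.7 ± 9.71 for MG libraries (SD, n = 3 each). Of the 11 promoter peaks, 0, 5 and 0 were in the BMDM lists and 5, 9 and 7 in the MG lists. BMDM 2 and MG 1, whose lists were of similar length, both held 5. The share of all promoter-class peaks in each list was not computed, so these counts are not a result about the member promoters. The lists held 33982, 52631 and 17741 peaks in BMDM and 50217, 70739 and 52566 in MG, so they differ in length, and BMDM 3 had the fewest reads and the shortest list. Set against all table peaks, the members were listed less often in each BMDM library and in MG 1, at about the same share in MG 2 and more often in MG 3. These shares were not tested.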

How the data were processed

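ATAC-seq libraries of 3 BMDM and 3 MG sorts were analysed, grouped by their labels. Per the submitters' processing notes the authors used DESeq2 1.36.0, ChIPseeker 1.32.1, MACS2 2.1.1.20160309, Bowtie2 2.4.1 and cutadapt 1.8.1 with the build mm10. How they were set, and whether duplicates were removed or reads shifted for the transposase, is not given in the sources used here. Values of 1 deposited table and 6 peak lists were analysed. This table holds log2 values per library, variance-stabilized by the authors. Per the file headers it also holds their mean normalized signal, a log2 fold change, a p-value and an adjusted p-value. The deposited peak lists give the authors' fold enrichment and score, a −log10 p and a −log10 q for each peak, called per library. Another 8 columns of per-sample values were not used.

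Of 93084 lines, 65 without annotation and 155 repeating a peak were left out. Inverting the stabilization gave normalized counts whose mean matched the deposited mean within 2.37e-06 of its value. Times the size factors these were whole reads in 100% of values (tolerance 0.05 read). Limits from 3 reads cover counting error only, since PCR reads are not independent molecules.

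limma 3.58.1 (R 4.3.3, trend, two-sided) was fitted to log2(normalized count + 1) over all peaks, promoter sums and distal sums with a mean of at least 10. The pseudocount shrinks the differences of low peaks. A feature was called at a Benjamini-Hochberg adjusted p under 0.05. Tests had been planned for counts or normalized values, and the form for normalized values applied. The size of the differences was checked on simulated data, in which all features shared the same dispersion and no library stood out. Since the MG libraries here were less alike, that check does not bear on false calls in these data. Named peaks are, per member, the promoter and distal peak with the highest mean and up to 3 called peaks with the smallest p; of other lists, up to 4 called genes with the largest difference; and the 8 most similar genes above the median level. The members, lists and rules were chosen with earlier results of these data known. Alternatives were library totals, loess, voom, a pseudocount of 5, no filter or a minimum of 30, no variance trend, a replicate block, narrower distance limits and leaving out each library.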

Additional observations from a re-analysis of the deposited data

How the results depend on the processing

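Peak calls depended on the setting more than the differences did. Member peaks lower in BMDM numbered 8 (5 with library totals, 4 without a variance trend, 0 with voom, and between 0 and 26 when 1 library was left out), and those higher in BMDM 3 (6, 1, 0, and between 0 and 6). With voom 0 of all peaks passed (lowest adjusted p = 0.0505), though at an unadjusted p under 0.05 voom had 13899 higher and 7149 lower. Promoter sums lower in BMDM numbered 2 and became 1 with library totals, loess, a minimum mean of 30, no trend and voom and 3 with promoter peaks within 1 kb, where Gfap passed (1 to 3 when 1 library was left out), and higher ones 0 throughout. Distal sums lower in BMDM numbered 1 and became 0 with no trend and voom (0 to 2 when 1 library was left out). Distal sums higher in BMDM numbered 0 and became 1 with library totals, loess and peaks within 100 kb (0 to 1). The cause was not tested, beyond the loss of a library leaving fewer samples.

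Among 29 single peaks and sums, settings other than leaving out a library left 247 values on the same side of the threshold, took 18 below it and 10 past it, and reversed 3. Leaving out a library did so for 125, 28, 11 and 10. The reversals, none of a called difference, were the Aldh1l1 peak at 90531352 without MG 2 (range over left-out libraries -2.26 to 0.37), the Gja1 peak at 56339000 with loess (-0.00094), without BMDM 3 (-0.06) and without MG 1 (range -0.34 to 0.36), the Gja1 peak at 56377135 without MG 2 (range -0.60 to 0.04), the Aldh1l1 promoter sum without BMDM 2 (0.0022) and without MG 2 (range -0.65 to 0.31), the Gja1 promoter sum without BMDM 1 (0.12) and without MG 2 (range -0.47 to 0.31), and the Aqp4 distal sum with loess (-0.04), a pseudocount of 5 (-0.04), without BMDM 3 (-0.24) and without MG 1 (range -1.02 to 0.88).

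The replicate numbers pair no samples by the labels. Deviations of same-numbered libraries correlated at 0.43, -0.07 and 0.32 for numbers 1, 2 and 3, and not every library correlated best with its own number (BMDM 2 with MG 1 at 0.12, BMDM 3 with MG 2 at 0.43). With the replicate block 15 member peaks were lower and 6 higher in BMDM, and 1 distal sum, Slc1a2, was higher. Member peaks in the deposited lists averaged 7 in BMDM and 27.3 in MG when 50% had to be covered, and 9 and 33 at a −log10 q of at least 5.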
